A study of Homo sapiens with 4 samples.

Results

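The genes of HLA class I antigen presentation were examined in the mRNA of imatinib-sensitive and imatinib-resistant TF1-BCR-ABL cells. The 9 genes were chosen by name among the 32673 genes of the deposited expression table, and each symbol had a single row. They are the classical heavy chain genes HLA-B and HLA-C, the non-classical heavy chain genes HLA-E and HLA-F, the light chain gene B2M, the peptide transporter genes TAP1 and TAP2, the tapasin gene TAPBP, and NLRC5, which codes for the transactivator of the class I promoters.

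TF-1 is a human erythroleukaemia cell line that grows with granulocyte-macrophage colony-stimulating factor (GM-CSF), and TF1-BCR-ABL cells carry the BCR-ABL fusion of chronic myeloid leukaemia. The sensitive group, TF1-BA, and the resistant group, TF1-BAR, each had 2 libraries, and both lines were grown with GM-CSF and serum. Imatinib, an inhibitor of the ABL kinase, was added at 2 μM to the culture of the TF1-BAR cells. Resistance, any vector in the TF1-BAR libraries, whose titles name one, and drug in the medium cannot be told apart in this comparison. Each group is a single line, and the labels do not say whether its 2 replicates, of 10000000 cells each, came from separate cultures, so p-values measure only the spread between these libraries.

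Class I molecules show peptides from inside the cell to CD8+ T cells. Proteasomes and peptidases cut proteins into peptides, the TAP1-TAP2 transporter carries the peptides into the endoplasmic reticulum, and tapasin holds the empty heavy chain beside the transporter until a peptide has bound. The heavy chain reaches the surface only when it is paired with β2-microglobulin, the product of B2M. NLRC5 does not bind these promoters by itself and acts through the proteins RFX5, RFXAP and RFXANK, the CREB family and NF-Y, which sit on the SXY module upstream of the class I genes, and interferons raise the whole pathway through JAK kinases and IRF1. HLA-E presents leader peptides of other class I chains to receptors of NK cells.

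The promoters of these genes are shown because the levels described after them differ between genes that share these elements. The sequences were taken from the RefSeq windows of GRCh38.p14 around each transcript start, which held 7 of the 9 genes. HLA-E and NLRC5 had no entry. The stretches of HLA-B and HLA-C run from base -190 to base -41, counted from the start of the transcript, and are written 5′ to 3′ on the strand of the gene. Capitals mark the NF-κB motif GGGNNTTCC, the X2 box motif TGACGC of the SXY module, the CCAAT motif, read by NF-Y, and the interferon-stimulated response element (ISRE) motif GAAANNGAAA, each on either strand.
HLA-B, chr6:31357220-31357369, minus strand: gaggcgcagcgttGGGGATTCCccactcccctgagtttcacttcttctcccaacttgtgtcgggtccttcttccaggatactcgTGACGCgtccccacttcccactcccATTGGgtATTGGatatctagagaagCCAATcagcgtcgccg
HLA-C, chr6:31272133-31272282, minus strand: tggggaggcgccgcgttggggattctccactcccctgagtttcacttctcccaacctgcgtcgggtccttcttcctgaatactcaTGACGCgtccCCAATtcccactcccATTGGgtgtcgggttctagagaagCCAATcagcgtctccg
B2M, chr15:44711357-44711476, plus strand: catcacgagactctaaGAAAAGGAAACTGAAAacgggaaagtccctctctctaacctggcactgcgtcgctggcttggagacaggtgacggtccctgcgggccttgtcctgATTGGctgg
TAP1, chr6:32853816-32853845, minus strand: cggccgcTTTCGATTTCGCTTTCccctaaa
TAP2, chr6:32838769-32838798, minus strand: cGAAAGCGAAAgctgcccgagcccTGACGC
HLA-F, chr6:29723269-29723298, plus strand: tccccagagTTTCTCTTTCtctcccaaccc
TAPBP, chr6:33314079-33314108, minus strand: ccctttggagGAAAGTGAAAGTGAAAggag
Aligned with each other, the HLA-B and HLA-C stretches had the same base in 134 of 154 columns, or 87.0%, with 8 gap columns. Both held TGACGC, at bases -106 to -101 in HLA-B and -105 to -100 in HLA-C, and a CCAAT motif at bases -56 to -52. The NF-κB letters at bases -177 to -169 stood in HLA-B and not in the HLA-C window. In capitals in the stretch of B2M are a pair of overlapping ISRE matches between bases -144 and -129 and an inverted CCAAT. TAP1, in the second of its RefSeq windows, and TAPBP also had overlapping ISRE matches, and TAP2 had an ISRE match followed by TGACGC.

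The ISRE letters were found in the windows of 5 of the 7 genes (B2M, HLA-F, TAP1, TAP2 and TAPBP) and in 3.57% of the 35116 promoter windows of all genes. TGACGC was found in 3 of the 7 (HLA-B, HLA-C and TAP2) against 9.14% of all windows, and GGGNNTTCC in 3 of the 7 (HLA-B, B2M and TAPBP) against 6.58%. CCAAT was found in 5 of the 7 against 34.6% of all windows. The interferon-γ activated site TTCNNNGAA was found in 1 of the 7, TAP1, against 7.66%. These matches describe letters in fixed windows and not bound sites, and genes with the same letters did not all move alike: of the 5 genes with an ISRE match, B2M, TAP1 and TAP2 fell, TAPBP did not pass the test and HLA-F was too low to be tested.

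Expression was given as FPKM, a fragment number corrected for transcript length and for library size. It was compared with limma on log2(FPKM + 0.5), adjusted by the Benjamini-Hochberg method over the 15519 genes with a mean of at least 0.5 FPKM, so that log2 fold changes of genes near that level are smaller than those of the plain FPKM. Of the 9 genes, 8 passed this filter and HLA-F did not. 6 of the 8 were lower in the TF1-BAR cells at an adjusted p under 0.05, against 10.5% of all genes tested, and 0 were higher, against 16.3% of all genes. 3 of the 8, HLA-B, HLA-C and NLRC5, also passed an absolute log2 fold change of 1, against 1.69% of all genes for a decrease. In 7 of the 8, both TF1-BAR libraries lay below both TF1-BA libraries, which 28.4% of all genes did. The median log2 fold change of the 8 genes was -0.68 and that of all genes tested was 0.07. In bulk RNA, fewer cells that express a gene and less RNA per cell cannot be told apart.

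**Figure D1:**
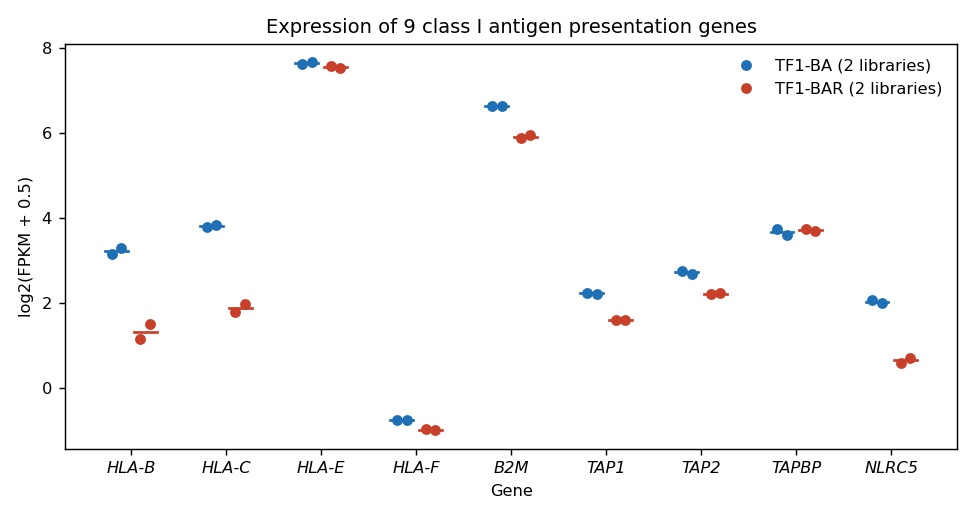
Level of each of the 9 genes in each library, as log2(FPKM + 0.5) on the vertical axis, with TF1-BA in blue, TF1-BAR in red and a short line at the mean of the 2 libraries. The groups are apart by more than the spread of their libraries for HLA-B, HLA-C, B2M, TAP1, TAP2 and NLRC5, whereas TAPBP overlaps and HLA-E, the most abundant, differs little.

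HLA-C and HLA-B, the classical heavy chains, fell most. HLA-C (ENSG00000204525; GRCh38 chr6:31268749-31272130, minus strand) was at 13.4 and 13.7 FPKM in the TF1-BA libraries and at 2.94 and 3.42 FPKM in the TF1-BAR libraries. The groups were far apart, with means of 13.6 ± 0.263 and 3.18 ± 0.346 FPKM (SD, n = 2). HLA-C was thus 4.26-fold lower in the TF1-BAR cells, with a log2 fold change of -1.94 (SE 0.0961, limma adjusted p = 0.00238). Only 48 of the 15519 genes tested, or 0.309%, had a larger decrease.

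HLA-B (ENSG00000234745; GRCh38 chr6:31269491-31357188, minus strand) was at 8.34 and 9.35 FPKM in the TF1-BA libraries and at 1.71 and 2.32 FPKM in the TF1-BAR libraries. Here too the groups did not overlap, and the mean fell from 8.84 ± 0.713 to 2.01 ± 0.438 FPKM (SD, n = 2). This is a 4.39-fold lower level, and the log2 fold change was -1.90 (SE 0.148, limma adjusted p = 0.00446). A larger decrease was seen in 52 genes, or 0.335%. The ratio of HLA-B to HLA-C was 0.623 and 0.680 in the TF1-BA libraries, against 0.581 and 0.679 in the TF1-BAR libraries, so the ranges overlapped while both genes fell.

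These heavy chains are near-identical over long stretches, and their reads can be split between them. The extent given for HLA-B in the table also overlaps most of HLA-C on the same strand, and of fragments in shared sequence the methods say no more than that the pipeline ran with its defaults. The values of HLA-B and HLA-C are for these reasons uncertain as values of single genes. Reads were mapped to the reference genome, and the class I alleles of the line were not examined. HLA-C rested on 605 and 533 fragments for TF1-BA against 116 and 138 for TF1-BAR, and HLA-B on at least 459 and 441 against at least 82 and 114, counted back from the FPKM. These fragment numbers bear on counting error only, and not on how reads were assigned to genes.

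HLA-E, the non-classical heavy chain with the highest level, did not pass the test. HLA-E (ENSG00000204592; GRCh38 chr6:30489467-30494205, plus strand) was at 197 and 203 FPKM in the TF1-BA libraries and at 192 and 186 FPKM in the TF1-BAR libraries. Among all genes it ranked between 121 and 141 by library. Both TF1-BAR values were below both TF1-BA values, but by little: the log2 fold change was -0.08 with a 95% interval of -0.22 to 0.06 (limma adjusted p = 0.316). That interval leaves room for a small change in either direction and lies apart from the intervals of HLA-C (-2.18 to -1.69) and HLA-B (-2.28 to -1.52).

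Set against HLA-E within each library, a measure that does not depend on the scaling between libraries, the classical heavy chains fell as well. The FPKM ratio of HLA-C to HLA-E was 0.0678 and 0.0679 in the TF1-BA libraries, against 0.0153 and 0.0184 in the TF1-BAR libraries. The ratio of HLA-B to HLA-E was 0.0423 and 0.0461, against 0.00887 and 0.0125. Both ratios were thus about as far apart as the levels, 4.03-fold and 4.14-fold between the group means.

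HLA-F (ENSG00000204642; GRCh38 chr6:29722775-29738528, plus strand), a non-classical heavy chain that is kept largely inside resting cells, was hardly expressed. It was at 0.0894 and 0.0894 FPKM in the TF1-BA libraries, at 0.0146 FPKM in TF1-BAR replicate 1 and listed at 0 in TF1-BAR replicate 2. These values stood for as few as 7 and 6 fragments against 1 and 0, and no fold is given at that depth. Tested without the filter on low genes, its adjusted p was 0.116 by limma. A long antisense gene, HLA-F-AS1, overlaps HLA-F, and with the default parameters that the methods give for the pipeline, which use no strand, reads of both cannot be told apart.

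B2M, the light chain that all class I heavy chains need, fell as well. B2M (ENSG00000166710; GRCh38 chr15:44711477-44718877, plus strand) was at 99.5 and 99.4 FPKM in the TF1-BA libraries and at 58.4 and 61.4 FPKM in the TF1-BAR libraries. The groups were well apart, with means of 99.4 ± 0.0556 and 59.9 ± 2.08 FPKM (SD, n = 2). The level was 1.66-fold lower, with a log2 fold change of -0.73 (SE 0.0580, limma adjusted p = 0.00476), and 4.38% of all genes had a larger decrease. The decrease of B2M was smaller than that of HLA-B and HLA-C, with a 95% interval of -0.88 to -0.58 that did not reach theirs. At 9359 fragments or more per TF1-BA library and 5609 or more per TF1-BAR library, counting error was small. Without either TF1-BA library in turn, where the remaining one is assumed to vary like the TF1-BAR libraries, its adjusted p was 0.0501.

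**Figure D2:**
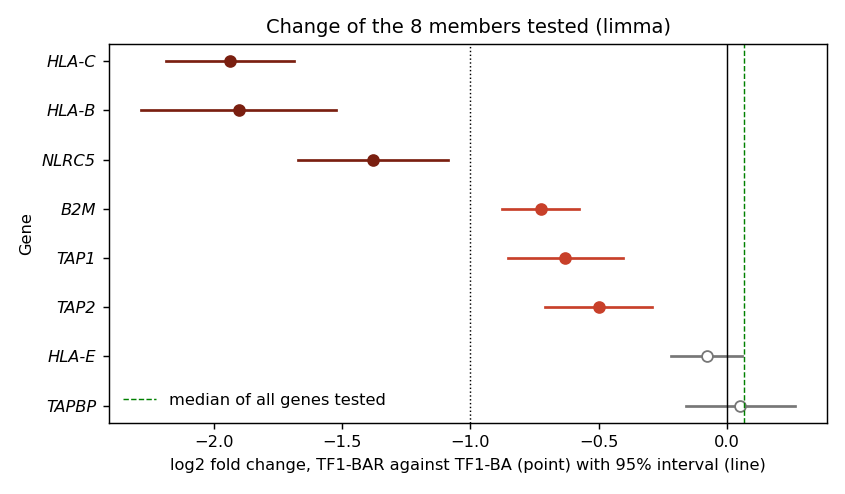
The log2 fold change of the 8 genes tested, TF1-BAR against TF1-BA, on the horizontal axis, with 95% intervals from limma as lines. Dark red points passed both thresholds, light red points passed the adjusted p alone and open grey points passed neither; the dotted line is at a log2 fold change of -1 and the green dashed line at 0.07, the median of all genes tested.

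TAP1 and TAP2, the chains of the peptide transporter, fell by similar amounts, and TAPBP did not pass the test. TAP1 (ENSG00000168394; GRCh38 chr6:32845209-32853978, minus strand) was at 4.18 and 4.17 FPKM in the TF1-BA libraries and at 2.51 and 2.53 FPKM in the TF1-BAR libraries. The libraries of each group nearly coincided, and the mean was 1.66-fold lower, with a log2 fold change of -0.63 (SE 0.0869, limma adjusted p = 0.0115). TAP1 lies within the span of PSMB9, on the opposite strand, and also overlaps PSMB8-AS1, so without the strand their reads cannot be told apart.

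TAP2 (ENSG00000204267; GRCh38 chr6:32821833-32838780, minus strand) was at 6.26 and 5.92 FPKM in the TF1-BA libraries and at 4.14 and 4.18 FPKM in the TF1-BAR libraries. The groups did not overlap, and the mean was 1.46-fold lower (log2 fold change -0.50, SE 0.0812, limma adjusted p = 0.0163). The TAP1 and TAP2 calls also changed, with the spread then taken from the other group: without TF1-BA replicate 1 the adjusted p was 0.0891 for TAP1 and 0.124 for TAP2, without TF1-BA replicate 2 it was 0.0884 and 0.0982, and without TF1-BAR replicate 2 TAP2 was at 0.0585.

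TAPBP (ENSG00000231925; GRCh38 chr6:33299694-33314387, minus strand), which codes for tapasin, was at 12.9 and 11.6 FPKM in the TF1-BA libraries and at 12.9 and 12.5 FPKM in the TF1-BAR libraries. The groups overlapped, and the log2 fold change was 0.05 with a 95% interval of -0.16 to 0.26 (limma adjusted p = 0.673). Its interval lies above those of TAP1 (-0.85 to -0.41) and TAP2 (-0.71 to -0.29). Within libraries, the FPKM ratio of TAP1 to TAPBP was 0.324 and 0.360 in TF1-BA and 0.195 and 0.202 in TF1-BAR, and these ranges did not overlap.

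NLRC5 (ENSG00000140853; GRCh38 chr16:56989485-57083531, plus strand), the class I transactivator, was at 3.70 and 3.47 FPKM in the TF1-BA libraries and at 0.999 and 1.14 FPKM in the TF1-BAR libraries. The groups were apart by many times the spread within them, with means of 3.58 ± 0.159 and 1.07 ± 0.0999 FPKM (SD, n = 2). NLRC5 was 3.35-fold lower, and its log2 fold change of -1.38 (SE 0.114, limma adjusted p = 0.00514) was exceeded by the decrease of 128 genes, or 0.825%. It rested on 826 and 665 fragments against 195 and 227. An antisense gene with a mean of 0.224 FPKM overlaps it.

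In order of their decrease on the log2 scale, the genes were HLA-C, HLA-B, NLRC5, B2M, TAP1, TAP2, HLA-E and TAPBP. The 95% intervals of HLA-C and HLA-B overlapped, as did that of HLA-B with that of NLRC5 (-1.67 to -1.09), and those of B2M, TAP1 and TAP2 overlapped among themselves. The interval of NLRC5 did not reach that of B2M. The distance between NLRC5, which lies near 1 FPKM in TF1-BAR, and the heavy chains depended on the pseudocount. At 0.1 FPKM in place of 0.5 FPKM the log2 fold changes were -2.06 for HLA-C (SE 0.104), -2.09 for HLA-B (SE 0.169) and -1.66 for NLRC5 (SE 0.135). HLA-C and HLA-B thus changed places, and their order is not settled. NLRC5 had the smallest decrease of the 3 at both pseudocounts, though its interval in the main test overlapped that of HLA-B. These genes were read in the same 4 libraries, so their intervals are not independent of each other. In order of level in the TF1-BA cells, HLA-E came first, at 200 ± 3.78 FPKM (SD, n = 2), followed by B2M, then HLA-C, TAPBP and HLA-B, then TAP2, TAP1 and NLRC5, and HLA-F last. The order in the TF1-BAR cells was HLA-E, B2M, TAPBP, TAP2, HLA-C, TAP1, HLA-B, NLRC5 and HLA-F. In neither order did the libraries of neighbouring genes overlap. HLA-C was above TAPBP (12.2 ± 0.931 FPKM) and TAP2 in the TF1-BA cells and below both in the TF1-BAR cells, where TAPBP was at 12.7 ± 0.264 FPKM and TAP2 at 4.16 ± 0.0257 FPKM (SD, n = 2).

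A list of 79 further genes of the pathway was examined beside the 9. Of these, 74 were in the table and 65 were tested. 11 of the 65 were lower in the TF1-BAR cells at an adjusted p under 0.05, 4 were higher and 50 did not pass, with a median log2 fold change of -0.01. All genes tested were lower in 10.5% and higher in 16.3%, with the median of 0.07 given above. Of these 15 calls, only those of HSPA5 and PROCR held without each library in turn, and the other 13 were lost without TF1-BA replicate 1 and likewise without TF1-BA replicate 2. FCGRT was lost without each of the 4 libraries in turn, and without TF1-BAR replicate 2 TPP2, NFYB, NFYC, IFNAR1, JAK2 and TYK2 were lost as well, as was RFXANK without TF1-BAR replicate 1. Of the 11 alternatives that used all libraries, TPP2 and NFYB kept their calls in 6, NFYC in 7, RFXANK and FCGRT in 8, TYK2 in 9, and PSME1, IFNAR1 and JAK2 in 10, and the other 6 genes kept theirs in all 11. The lists follow in the order of the steps of the pathway.

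**Figure D3:**
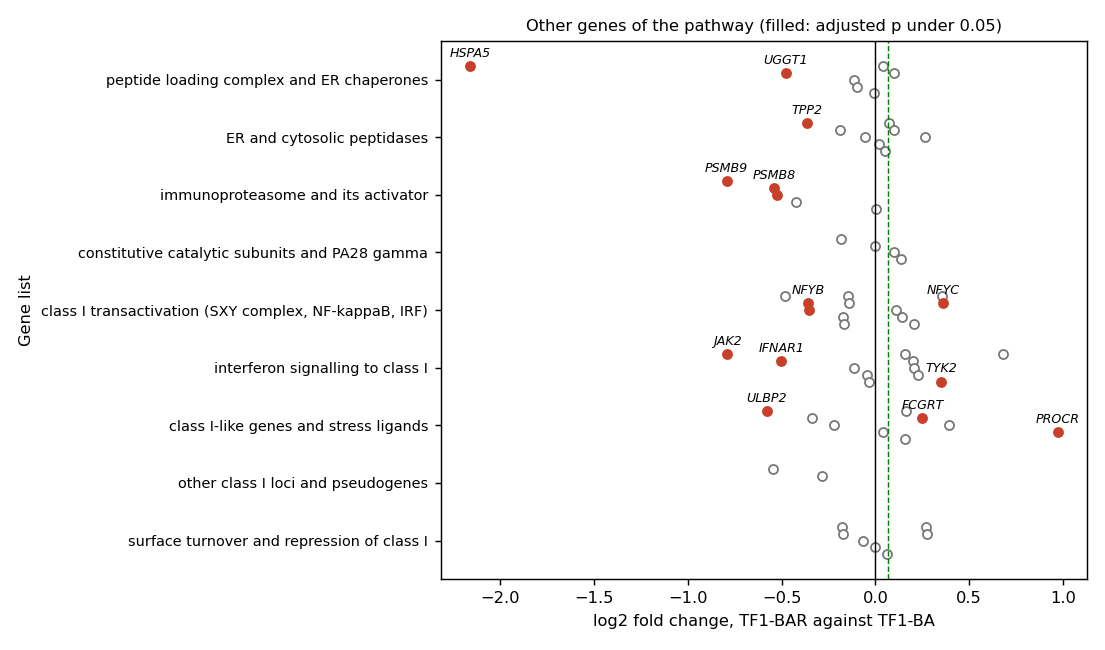
The log2 fold change, TF1-BAR against TF1-BA, of each tested gene of the 9 gene lists that surround the class I genes, 1 point per gene, with the lists on the vertical axis. Filled red points had an adjusted p under 0.05, the green dashed line is the median of all genes tested, and the vertical offset within a list has no meaning; 3 of the 5 immunoproteasome genes are filled and lie to the left, and HSPA5 lies apart at -2.16.

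The immunoproteasome is the form of the proteasome that trades its catalytic subunits for PSMB8, PSMB9 and PSMB10, and PSME1 and PSME2 form its PA28 activator. 3 of its 5 genes were lower, 0 were higher, and the median log2 fold change was -0.52. PSMB9 was at 4.17 and 4.21 FPKM in the TF1-BA libraries and at 2.33 and 2.09 FPKM in the TF1-BAR libraries, without overlap (log2 fold change -0.79, SE 0.0980, limma adjusted p = 0.00953), with the limit given for TAP1 on the shared locus. PSMB8 went from 22.5 and 22.6 to 15.7 and 15.1 FPKM (limma adjusted p = 0.00901), and PSME1 had a log2 fold change of -0.52 (limma adjusted p = 0.0152). PSMB8 overlaps PSMB9 and PSMB8-AS1, both on the opposite strand, so the limit given for TAP1 holds for PSMB8 too. PSMB10, with a log2 fold change of -0.42 and an adjusted p of 0.0935, and PSME2, at 0.00 and 0.976, did not pass. The calls of PSMB9, PSMB8 and PSME1 were lost without TF1-BA replicate 1 (limma adjusted p = 0.0712, 0.0793 and 0.108) and without TF1-BA replicate 2 (0.0730, 0.0822 and 0.0884).

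The constitutive subunits PSMB5, PSMB6 and PSMB7, which the immunoproteasome replaces, and PSME3 did not pass in any of the 4 cases, with a median log2 fold change of 0.05. Read as ratios within each library, PSMB8 to PSMB5 was 0.551 and 0.607 in TF1-BA against 0.419 and 0.370 in TF1-BAR, and PSMB9 to PSMB6 was 0.159 and 0.152 against 0.0955 and 0.0906. The ratio of PSMB10 to PSMB7 was 0.0314 and 0.0255, against 0.0175 and 0.0176. In all 3 pairs, both TF1-BAR libraries lay below both TF1-BA libraries. By level, 28.4% of all genes tested were apart in this way, and the ratios were not tested.

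Among the peptide loading and endoplasmic reticulum chaperone genes, 2 of 7 were lower and 0 were higher. The larger change was that of HSPA5, the general chaperone BiP of the endoplasmic reticulum, which was at 1282 and 1885 FPKM in the TF1-BA libraries and at 380 and 319 FPKM in the TF1-BAR libraries. The groups did not overlap, although the TF1-BA libraries were far from each other (log2 fold change -2.16, SE 0.200, limma adjusted p = 0.00597). HSPA5 was the only one of the 65 genes to pass both thresholds, and it serves folding in general and not class I alone. UGGT1, which marks misfolded glycoproteins for another round of folding, had a log2 fold change of -0.48 (limma adjusted p = 0.0108). CALR, CANX, PDIA3, P4HB and TAPBPL, a tapasin-related gene, had groups that overlapped and did not pass.

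Among the peptidases that trim peptides, 1 of 8 was lower and 0 were higher. This was TPP2, a cytosolic peptidase, at 25.8 and 27.8 FPKM in the TF1-BA libraries against 22.1 and 19.4 FPKM in the TF1-BAR libraries (log2 fold change -0.36, limma adjusted p = 0.0440). ERAP1, the trimming enzyme of the endoplasmic reticulum, was at 9.42 and 9.93 FPKM against 9.92 and 10.9 FPKM, with overlapping groups.

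Of the 12 transcription factors of the SXY module, the NF-κB family and the IRF family, 2 were lower and 1 was higher. NFYB, a subunit of NF-Y, was at 6.23 and 6.04 FPKM in the TF1-BA libraries and at 4.97 and 4.41 FPKM in the TF1-BAR libraries (log2 fold change -0.36, limma adjusted p = 0.0464). RFXANK, a subunit of the RFX complex, changed by nearly as much (log2 fold change -0.35, limma adjusted p = 0.0349), and NFYC, another NF-Y subunit, rose by 0.36 (limma adjusted p = 0.0451). These changes were each smaller than that of NLRC5, and RFX5, RFXAP, CREB1, ATF1, NFYA, NFKB1, RELA and IRF2 did not pass. IRF1, an interferon-induced activator of class I genes, was at 1.59 and 1.90 FPKM against 1.00 and 1.21 FPKM, without overlap, and had an adjusted p of 0.0714.

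Of 11 genes of interferon signalling, 2 were lower and 1 was higher. JAK2, a kinase of the interferon-γ and GM-CSF receptors, was at 15.4 and 13.2 FPKM in the TF1-BA libraries and at 8.75 and 7.40 FPKM in the TF1-BAR libraries (log2 fold change -0.79, SE 0.121, limma adjusted p = 0.0139). IFNAR1, a chain of the type I interferon receptor, had a log2 fold change of -0.50 (limma adjusted p = 0.0226), and TYK2, a kinase of the same receptor, one of 0.35 (limma adjusted p = 0.0398). IRF9, a DNA-binding factor of the type I interferon response, was at 0.365 and 0.511 FPKM against 0.602 and 0.590 FPKM and did not pass.

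The class I-like genes and stress ligands had calls in both directions. These were 1 lower and 2 higher of 9 tested, against 10.5% and 16.3% of all genes tested. ULBP2, a ligand of the NK cell receptor NKG2D, was at 6.20 and 6.18 FPKM in the TF1-BA libraries and at 3.90 and 4.06 FPKM in the TF1-BAR libraries (log2 fold change -0.58, limma adjusted p = 0.0114). PROCR, the endothelial protein C receptor, whose fold resembles class I but which presents no peptide, rose from 7.52 and 7.55 to 14.7 and 15.8 FPKM (log2 fold change 0.97, limma adjusted p = 0.00446). FCGRT, the heavy chain of the neonatal Fc receptor, which also pairs with β2-microglobulin, had a log2 fold change of 0.25 (limma adjusted p = 0.0409). MICA, with 0.39 and an adjusted p of 0.0590, and MICB, with -0.22 and 0.0904, did not pass.

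The remaining lists held no call. HLA-K, a class I pseudogene, was at 1.27 and 1.11 FPKM in the TF1-BA libraries and at 0.607 and 0.714 FPKM in the TF1-BAR libraries (limma adjusted p = 0.0643), and HLA-J overlapped between groups. Of 7 genes of surface turnover and chromatin repression of class I, 0 passed at an adjusted p under 0.05 by limma. EZH2, the methyltransferase of the Polycomb complex, which can silence class I genes, was at 7.55 and 7.68 FPKM against 7.94 and 7.97 FPKM, with a log2 fold change of 0.06 and a 95% interval of -0.13 to 0.24.

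Most of the class I genes lie in the major histocompatibility complex on chromosome 6, so the genes around them were compared. Between the start of HLA-F and the end of TAPBP (GRCh38 chr6:29722775-33314387, 3.59 Mb) the table listed 218 genes. Apart from the 6 tested class I presentation genes in it, 120 genes were tested, of which 12 (10%) were lower and 30 (25%) were higher, with a median log2 fold change of 0.06. The 6 genes had a median of -0.57, and 4 of them were lower. Over chromosome 6, 12% of 831 genes were lower and 18.2% were higher, with a median of 0.06, and the medians of chromosomes 15 and 16, which hold B2M and NLRC5, were 0.08 in 542 genes and 0.12 in 724 genes. The neighbours of HLA-B and HLA-C were spread on both sides of 0. Around TAP1 and TAP2, some of the 120 genes were lower as well. Among them were PSMB8 (log2 fold change -0.54), PSMB9 (-0.79), HLA-DQA1 (-0.86), HLA-DMA (-0.55) and HLA-DOA (-0.82). Others there, such as HLA-DRA (-0.11), HLA-DRB1 (-0.04) and HLA-DPA1 (-0.01), did not pass.

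The protein-coding genes most like the median profile of the 8 tested genes were sought by Euclidean distance between centred log2(FPKM + 0.5) values over the 4 libraries. The nearest gene was MELK, a cell cycle kinase, at 25.2 and 24.9 FPKM in the TF1-BA libraries and 15.2 and 15.8 FPKM in the TF1-BAR libraries, with a distance of 0.0118 on the log2 scale. SEC23IP, at 0.0129, and SFT2D2, at 0.0165, both genes of vesicle transport, came next. With 4 libraries in 2 groups, such a distance mostly ranks the size of the group difference, and it is given as a description.

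As a check of the cell type, all 9 markers of TF-1 and erythroid-myeloid progenitor cells, among them CD34, KIT, GATA1 and MYB, were above 1 FPKM in each library, and their summed level was 310 to 329 FPKM in TF1-BA and 410 to 432 FPKM in TF1-BAR. Immune cells express much class I, so their markers were read too. Summed T cell markers (4 of 4 in the table) were at 19.5 to 21.1 FPKM in TF1-BA and 6.18 to 7.22 FPKM in TF1-BAR and moved with the class I genes, but this was CD3D, at 19.2 and 20.7 against 5.74 and 6.36 FPKM, whereas CD3E did not exceed 0.0227 FPKM and was listed at 0 in TF1-BA replicate 1 and TF1-BAR replicate 2. Summed B cell markers (3 of 4) were at 3.22 to 3.60 and 4.22 to 4.55 FPKM, monocyte markers (2 of 4) at 0.215 to 0.326 and 1.32 to 1.41 FPKM, with CD14 listed at 0 in 3 of the 4 libraries, and NK cell markers (4 of 4) at 9.99 to 10.2 and 12.9 to 13.1 FPKM, nearly all NKG7. Dendritic cell markers (3 of 4), carried by FCER1A, were at 25.2 to 26.3 and 57.0 to 59.7 FPKM, and fibroblast and epithelial markers (4 of 4), carried by KRT18, at 32.7 to 34.7 and 55.0 to 56.1 FPKM. Apart from the T cell sum, these sums were higher in TF1-BAR, opposite to the class I genes, and the part of other cells in the results was not tested.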

How the data were processed

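RNA of TF1-BA and TF1-BAR cells was extracted with TRIzol, made into libraries with the NEBNext Ultra kit and sequenced in pairs for the authors by a company, 2 libraries per group. Reads were mapped to GRCh38 with TopHat2 2.0.13 and quantified with Cufflinks and Cuffdiff 2.2.0, per the submitters' processing notes. The authors deposited FPKM per gene and library for 32673 genes, without log transformation; the annotation release is not given in the sources used here, and the methods give default parameters, which use no strand, for the pipeline.

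The fragments behind the deposited FPKM were recovered with library totals and transcript lengths chosen so that each value stands for a whole number within 0.02 fragments. This held for 15181 genes at GENCODE 44 lengths and 15663 at a fitted length, of 30853 genes above 0. With library sizes off by 1.3%, it held for 0 of 300 genes drawn. That check does not bear on the fitted lengths, which were themselves chosen to give whole numbers. HLA-C and NLRC5 were whole at the GENCODE 44 length, and HLA-B, HLA-E, HLA-F, B2M, TAP1, TAP2 and TAPBP were not, so their fragment numbers are less certain. Where the fitted length allowed multiples, the smallest number is given. The libraries held 18042299 and 15465497 fragments (TF1-BA) and 15761642 and 16074303 (TF1-BAR). Intervals and fragment numbers from a single library cover counting error only.

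The main test was limma 3.58.1 in R 4.3.3 (lmFit, eBayes with a trend) on log2(FPKM + 0.5) for 15519 genes with a mean of at least 0.5 FPKM, with Benjamini-Hochberg adjustment. A gene was called differentially expressed past both thresholds of the study's methods, 1 for the size of the log2 fold change and 0.05 for the adjusted p. An exact permutation test of 2 against 2 libraries cannot go below p = 0.333 and was not used. The procedure was tested on simulated data. Motifs were searched on both strands of RefSeq promoter windows with Python 3.11.15. The genes named are the 9 genes, the pathway genes that passed both thresholds, the largest called change of each list in each direction, and the 3 nearest profiles. Other genes given with values were named after their values were seen. The genes, lists and rules were chosen with earlier results of these data known. Some genes are not reported here.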

Additional observations from a re-analysis of the deposited data

How the results depend on the processing

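Results were recomputed under 15 alternatives, 4 of which left out a library each, so that the remaining library of that group was assumed to vary like those of the other group; limma voom on the recovered fragments was chosen after seeing the data. HLA-B, HLA-C and NLRC5 kept their calls in all 15 (log2 fold change -2.14 to -1.71, -2.09 to -1.80 and -1.75 to -1.15; adjusted p up to 0.0379, 0.0323 and 0.0451). B2M (-0.76 to -0.66), TAP1 (-0.73 to -0.56) and TAP2 (-0.58 to -0.44) kept their direction in all 15 and their calls in all 11 alternatives with all libraries. The members lower in TF1-BAR, 6 in the main test, numbered 3 to 6 without each library in turn, where fewer samples were left. TAPBP, which was not called, ranged from -0.023 to 0.13 without each library in turn, turning negative without TF1-BA replicate 2, and HLA-E stayed at -0.13 to -0.01. The median of the members was -0.61 after rescaling to TPM. Differentially expressed genes, 737 in the main test, numbered 487 with a pseudocount of 1 FPKM, 1146 with limma voom on the recovered fragments and 429 to 794 without each library. Pathway list genes higher in TF1-BAR, 4 in the main test, numbered 7 with a minimum mean of 1 FPKM, 1 with no filter, 7 after rescaling to TPM, 1 without the trend, 9 with voom and 1 to 5 without each library; those lower, 11 in the main test, numbered 5 with no filter and 1 to 10 without each library. The cause of these moves was not tested. All genes at an adjusted p under 0.05 numbered 4167 in the main test and 1446 with no filter, where more genes are tested, and 518 to 3386 without each library. Quantile normalization gave 51.6% of differentially expressed genes higher in TF1-BAR, against 64.3% in the main test, and a median of all genes of 0.00 in place of 0.07. With a replicate block, there were 755 differentially expressed genes and 6 members lower, and no member's call changed. The pathway list then had 3 genes higher and 9 lower. The deviations of same-numbered libraries correlated at 0.0646 over 15519 genes. Whether these libraries share more than a number is not given in the labels and was not tested. Depth limits HLA-F, for which as few as 7 fragments or fewer per library account for the values.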
